A study of Mus musculus with 12 samples.

Results

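The comparison described here is between EMRK1184luc lymphoma cells kept in WM-1119 for 6 days and the same line kept in WM-1119 for 3 days. Its members are 6 RNA-seq libraries, 3 per time, chosen by their labels from 12 libraries in all. The other 6 libraries are the vehicle cultures, 3 at 3 days and 3 at 6 days in DMSO, and they are used to show which changes with time also occurred without the inhibitor. EMRK1184 is a B cell lymphoma line from 1 female Eµ-Myc mouse, in which the immunoglobulin heavy chain enhancer Eµ drives Myc in B-lineage cells. The luc derivative carries a luciferase gene brought in by a lentivirus, so all 4 groups share the Myc transgene and the reporter. WM-1119 was given at 5 µM. All results come from 1 line of 1 mouse. The design text speaks of biological replicates but names no separate cultures, so the p-values cover only the variation among the sequenced samples, which may be technical. In bulk RNA, fewer cells of a kind and less RNA per cell cannot be told apart.

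WM-1119 inhibits KAT6A and KAT6B, acetyltransferases of the MYST family that work in complexes with BRPF scaffold proteins and acetylate histone H3 at genes. KAT6A is known for its role in blood stem cells and in the early B cell lineage, and inhibition of KAT6 enzymes is known to stop the growth of lymphoma cells with features of senescence. A change between 3 and 6 days of treatment asks which transcripts were still moving after the first days, as distinct from those already different from vehicle at 3 days.

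The WM-1119 libraries held 18266488, 28136250 and 18804279 counts at 3 days and 16620599, 17509662 and 14691369 at 6 days, and those of DMSO held 17863138 to 41607926. Levels are given in CPM, the usual unit of counts scaled by the library total, here also by its TMM factor, and fold changes are estimates of 1 edgeR quasi-likelihood fit to all 12 libraries. Fitted log2 changes carry standard errors, and adjusted p-values are Benjamini-Hochberg over the 11997 tested genes. B cell markers summed to 3440 to 3490 CPM at 3 days and 3330 to 3510 CPM at 6 days in WM-1119. Cd3d, Cd3e, Cd3g, Cd4, Cd8a and Cd8b1, which define T cells, had no count in any WM-1119 library. Zap70, at 3.33 to 5.72 CPM, Lck, at 1.08 to 2.27 CPM, and Cd28, at 0.244 to 0.682 CPM, had counts in all of them. The 10 T cell markers summed to 7.03 to 7.35 CPM at 3 days and 5.27 to 7.28 CPM at 6 days in WM-1119. The 20 fibroblast markers summed to 12.6 to 16.9 CPM at 3 days in WM-1119. At 6 days they summed to 41.1, 64.0 and 12.1 CPM, with Col1a1, a collagen of fibroblasts, at 6.83, 12.9 and 0.408 CPM. DMSO libraries at 6 days also held more Col1a1 in replicates 1 and 2, at 6.1 and 2.08 CPM, than in replicate 3, at 0.487 CPM. All 11 tested fibroblast markers had a positive estimate from 3 to 6 days in WM-1119, with a median log2 change of 2.59. All 11 were positive in DMSO too, with a median of 2.07. At an unadjusted p under 0.05, 9 were higher in WM-1119 and 1 in DMSO, and none was lower. Col5a2 alone passed in WM-1119 (adjusted p = 0.0297), with overlapping groups. Lum and Mfap5 had no count in the 6-day WM-1119 libraries, and the part of this signal in single results was not tested except where values without those libraries are given. With the summed fibroblast markers as a covariate in the fit, 155 of the 279 rises and 236 of the 395 falls in WM-1119 were called again, and all 674 genes kept their direction.

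Between 3 and 6 days in WM-1119, 674 of 11997 tested genes changed (5.62%, adjusted p below 0.05), 279 of them higher at 6 days (2.33%) and 395 lower (3.29%). Most steps were small. The median log2 change was 0.28 among the genes that rose and -0.37 among those that fell, and 17 rose and 34 fell by more than 2-fold. In 668 of the 674 genes the 3 libraries of each time did not overlap, against 3550 of all tested genes (29.6%). Upper-quartile scaling turned the split to 200 higher and 514 lower. Leaving out the 5 libraries with Col1a1 over 1 CPM, which leaves 1 library at 6 days in each treatment, gave 65 higher and 203 lower. Of the 674 genes 671 kept their direction then, while 50 of those that rose and 93 of those that fell passed again. Among fits without 1 WM-1119 library, the count was 309 without replicate 2 at 3 days, 368 without replicate 3 at 3 days, 362, 391 and 392 without replicates 1, 2 and 3 at 6 days, and 576 without replicate 1 at 3 days. In all 6 of these fits 85 genes remained higher and 128 remained lower.

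The same days in DMSO changed 97 genes (0.809%), 43 higher (0.358%) and 54 lower (0.45%). Which treatment had more called genes depended on the libraries kept, and a difference between these counts was not tested. Both treatments changed 36 genes, which is 5.34% of the genes changed in WM-1119 and 37.1% of those changed in DMSO, and 30 of these moved the same way. The change with time differed between WM-1119 and DMSO, by the interaction term of the fit, in 87 genes (0.725%), with 48 more positive in WM-1119 (0.4%) and 39 more negative (0.325%). Of these 87 genes, 62 had also changed in WM-1119 and 26 in DMSO. For 9.2% of the genes that changed in WM-1119, then, the step was shown to differ from that in vehicle, and for the others it was not. Without the libraries over 1 CPM of Col1a1 the interaction was called in 5 genes, and without replicate 3 of DMSO at 6 days in 93 genes in the positive and 124 in the negative direction.

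**Figure D1:**
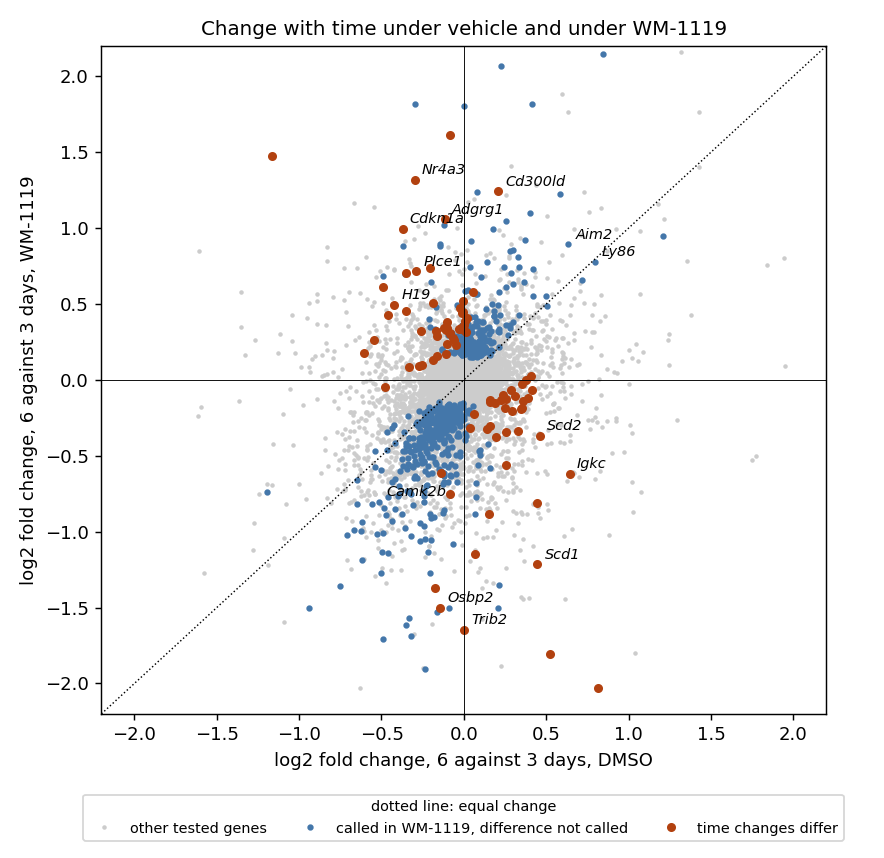
Each point is 1 of 11997 tested genes, with its fitted log2 fold change from 3 to 6 days in DMSO on the x axis and in WM-1119 on the y axis; 26 genes beyond 2.2 on either axis are not drawn. Dark orange points are the genes whose time changes differed by the interaction test, blue points those changed in WM-1119 without a called difference, and Trib2, Scd1 and Nr4a3 lie far from the dotted line of equal change while Aim2 and Ly86 lie near it.

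Among the largest falls were those of Trib2, Osbp2, Brwd1, Plppr3 and Scd1, all with a higher mean in vehicle than in WM-1119 at 6 days. Trib2, a pseudokinase of the Tribbles family that acts as an adaptor for protein degradation, stood at 27.7, 27.8 and 24.9 CPM at 3 days and at 10.3, 7.63 and 7.75 CPM at 6 days of WM-1119 (chromosome 12, 15791725 to 15816962, GRCm38). The groups did not overlap. In DMSO the gene was at 76.7, 72.6 and 74.5 CPM at 3 days and 80, 73.1 and 70.9 CPM at 6 days. The fitted change in WM-1119 was -1.65 ± 0.09 (log2, standard error), 3.13-fold lower (adjusted p = 6.31e-10), and its difference from the DMSO change was -1.65 ± 0.12 (adjusted p = 2.04e-08). Among the genes named by rule, Trib2 had the largest fold of those that fell.

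Osbp2, an oxysterol-binding protein family member, was at 4.76, 5.97 and 5.98 CPM at 3 days and 2.52, 1.58 and 1.84 CPM at 6 days, 2.83-fold lower (adjusted p = 2.66e-05). Its DMSO levels were 14.9 to 16.8 CPM at 3 days and 13.2 to 15.8 CPM at 6 days, and the time changes differed by -1.36 ± 0.20 (adjusted p = 0.00129). Brwd1, a bromodomain protein that restricts early and promotes late B cell development, fell from 3.89, 3.87 and 4.67 CPM to 1.86, 1.13 and 1.84 CPM (log2 change -1.37 ± 0.20, adjusted p = 0.000325). For both genes every 6-day library lay below every 3-day library. Plppr3, Trim35 and Tgfbr3l fell by 1.28, 1.19 and 1.02 on the log2 scale, without a called difference from DMSO, where their changes were -0.50, -0.62 and -0.53. Ppp1r9a, which encodes the actin-binding protein neurabin, fell by 1.14 on the log2 scale, from 4.77 to 5.3 CPM down to 1.86 to 2.58 CPM, and its adjusted p was 0.0559 without the Col1a1-high libraries. Ccdc78 and Btbd6, at 3.8 and 4.4 CPM at most, and the small RNA genes Snord96a and Mir142 complete the 12 largest falls among genes with a symbol, a mean of at least 2 CPM and no overlap.

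Papln, Mbd6 and Camk2b, among the falls with the smallest p-values, moved less. Papln, an extracellular matrix glycoprotein, went from 139, 161 and 162 CPM to 106, 100 and 106 CPM (log2 change -0.57 ± 0.06, adjusted p = 4.24e-06). It also fell in DMSO, by 0.31 on the log2 scale (adjusted p = 0.00561). Mbd6, a methyl-CpG-binding-domain protein of a histone deubiquitinase complex, went from 90.1, 95 and 91.7 CPM to 66.5, 60 and 68.8 CPM, and Camk2b, a calcium/calmodulin-dependent kinase subunit, from 11.3, 13.1 and 13.8 CPM to 7.72, 7.63 and 6.53 CPM. Camk2b fell in DMSO as well, by 0.51 (adjusted p = 0.000926), and for neither gene was the difference between treatments called. Leng8, singled out after its values were seen, had tight groups, 206, 213 and 205 CPM against 116, 116 and 115 CPM (adjusted p = 0.0218). DMSO replicate 3 at 6 days, at 88.4 CPM, lay below the other DMSO libraries (131 to 178 CPM), and the fit shares 1 estimate of the spread over all groups.

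**Figure D2:**
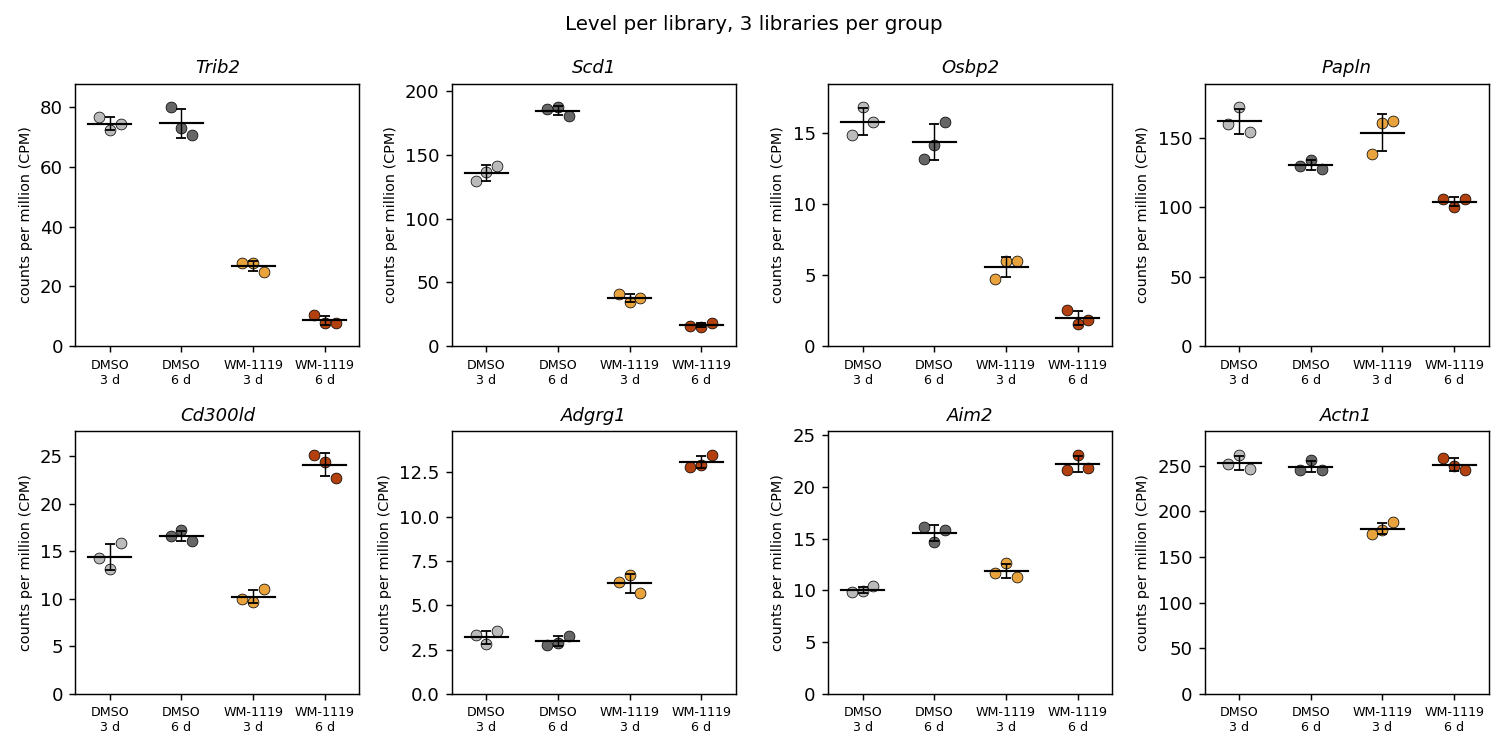
CPM per library (points), mean (line) and SD (bar) of 3 libraries for 4 genes that fell and 4 that rose from 3 to 6 days in WM-1119, with DMSO beside them. Trib2 falls from 24.9 to 27.8 CPM down to 7.63 to 10.3 CPM in WM-1119 and stays between 70.9 and 80 CPM in DMSO, whereas Papln falls and Aim2 rises in both.

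Among genes with a symbol, a mean of at least 2 CPM and no overlap, the largest rises were in Nr4a3, Cd300ld, Cgnl1, Cd300ld4 and Adgrg1. Cd300ld, an activating receptor of the CD300 family of immunoglobulin-like membrane proteins, was at 9.95, 9.66 and 11 CPM at 3 days and 25.1, 24.4 and 22.7 CPM at 6 days (chromosome 11, 114982443 to 114989886). No library of one time came near the other time. The rise was 2.37-fold (log2 change 1.24 ± 0.09, adjusted p = 1.5e-08), and DMSO stood at 13.1 to 15.8 CPM at 3 days and 16.1 to 17.2 CPM at 6 days. The time changes differed by 1.04 ± 0.12 (adjusted p = 0.000107), so Cd300ld went from below to above the vehicle level. Its neighbours Cd300ld3 (3.56 to 4.67 CPM, then 6.23 to 8.91 CPM) and Cd300ld4 (1.21 to 1.41 CPM, then 2.43 to 2.93 CPM) rose too, by 1.90-fold and 2.14-fold. These 3 genes are close paralogs, and their values are uncertain because the labels do not say how reads fitting several genes were counted.

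Adgrg1, an adhesion G protein-coupled receptor, was already above vehicle at 3 days and rose further. It was at 6.32, 6.73 and 5.67 CPM at 3 days and 12.8, 12.9 and 13.5 CPM at 6 days, against 2.73 to 3.52 CPM in all 6 DMSO libraries. The rise was 2.08-fold (log2 1.06 ± 0.12, adjusted p = 1.55e-05) and differed from DMSO by 1.18 ± 0.19 (adjusted p = 0.00233). Nr4a3, an orphan nuclear receptor induced as an immediate-early gene, rose 2.49-fold from 2, 1.81 and 1.99 CPM to 4.73, 4.3 and 5.44 CPM (adjusted p = 0.000196). Its DMSO libraries held 5.8 to 9.93 CPM, so the 6-day WM-1119 libraries still lay below all 6 of them. Plce1, a phospholipase C, followed the same course at a higher level, with 7.41, 7.47 and 5.98 CPM, then 11.4, 10.6 and 12.5 CPM, against 13.1 to 16.9 CPM in DMSO (difference of the time changes 1.00 ± 0.14, adjusted p = 0.000534).

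Actn1, the actin cross-linker alpha-actinin 1, and Uaca, an ankyrin-repeat and coiled-coil protein, rose to levels that overlapped those of vehicle. Actn1 went from 176, 180 and 188 CPM to 259, 249 and 245 CPM, against 246 to 262 CPM in DMSO, and Uaca from 100, 108 and 110 CPM to 138, 142 and 140 CPM, against 132 to 143 CPM in DMSO. Both rises differed from DMSO, by 0.49 ± 0.06 (adjusted p = 0.000189) and 0.38 ± 0.07 (adjusted p = 0.00442). Smoc1, a matricellular calcium-binding protein, rose by 0.58 ± 0.07 on the log2 scale to 59.8, 64.4 and 65.8 CPM. Aim2, a cytosolic DNA sensor that builds an inflammasome, rose 1.86-fold, from 11.7, 12.6 and 11.3 CPM to 21.6, 23.1 and 21.8 CPM, and rose in DMSO by 0.63 ± 0.08 on the log2 scale (adjusted p = 0.000643). Cgnl1, a tight junction protein, rose from 1.14 to 1.36 CPM to 2.94 to 3.05 CPM, with 2.09 to 3.65 CPM in DMSO. Under the same limits the 12 largest rises also held Cdkn1a and, at 1.26 to 7.97 CPM, Inpp4b, Lynx1, Slfn2 and Rgs10. The adjusted p of these last 4 was 0.299, 0.293, 0.451 and 0.0791 without the Col1a1-high libraries.

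In both treatments 4 genes rose that are outside the naming rule and were picked after their values were seen. Ly86, a partner of the Toll-like receptor homologue RP105 on B cells, rose by 0.78 ± 0.10 in WM-1119 and 0.79 ± 0.11 in DMSO (log2), from 8.65, 8.9 and 10 CPM to 15.7, 15.6 and 15.9 CPM in WM-1119. Shisa2 rose by 0.66 and 0.71, the sulfotransferase gene Chst11 by 0.49 and 0.50, and the ganglioside synthase gene B4galnt1 by 0.34 and 0.28. With Aim2, these are the 5 genes that rose in both treatments. Another 6 genes passed in both treatments with opposite directions. Scd1, Scd2, Cmah and Igkc fell in WM-1119 and rose in DMSO, while H19 and Gimap3 rose in WM-1119 and fell in DMSO.

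Genes of lipid synthesis changed differently from vehicle. Cells make cholesterol through the mevalonate pathway and unsaturated fatty acids through desaturases, and SREBP transcription factors switch both sets of genes on when membrane sterols are low. The list of 37 such genes had 36 tested. In WM-1119, 3 of the 36 fell and none rose by edgeR, beside 3.29% lower and 2.33% higher among all tested genes. The list had a median log2 change of -0.09, beside 0.01 for all tested genes. At an unadjusted p under 0.05, 1 was higher and 11 were lower, and DESeq2 and limma voom also called none higher. In DMSO, 17 of the 36 rose and none fell, beside 0.358% higher and 0.45% lower among all tested genes, with a list median of 0.26. None fell in DMSO by DESeq2 or voom either, and 1 was lower at an unadjusted p under 0.05. The time changes differed in 16 of the 36, all more negative in WM-1119, beside 0.325% more negative among all tested genes. The list had a median difference of -0.32. At an unadjusted p under 0.05 the difference was positive in 1, and DESeq2 and voom called none positive. Without the Col1a1-high libraries 3 members still fell in WM-1119 while 10 rose and 1 fell in DMSO, and 2 differed.

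Scd1 and Scd2, stearoyl-CoA desaturases that put the double bond into saturated fatty acids, had the 2 largest differences from DMSO in this list. Scd1 was at 40.5, 34.7 and 38.1 CPM at 3 days and 15.8, 14.9 and 18.2 CPM at 6 days in WM-1119 (chromosome 19, 44394450 to 44407709). In DMSO it was at 129, 136 and 142 CPM at 3 days and 186, 187 and 181 CPM at 6 days. None of the 4 groups overlapped. The change was -1.21 ± 0.07 in WM-1119 (2.32-fold lower, adjusted p = 9.28e-10) and 0.45 ± 0.06 in DMSO (adjusted p = 0.000539), and the difference was -1.66 ± 0.09 (adjusted p = 3.59e-10). Scd2, its neighbour and the more abundant of the pair in CPM, went from 282, 306 and 294 CPM to 228, 232 and 224 CPM in WM-1119, and from 558 to 637 CPM up to 831 to 845 CPM in DMSO. Its difference was -0.83 ± 0.07 (adjusted p = 2.41e-07). Both desaturases kept these calls in WM-1119, in DMSO and in the difference under all alternatives run. Tm7sf2, a sterol reductase, fell from 8.27 to 8.81 CPM to 4.07 to 5.43 CPM in WM-1119. Its estimate in DMSO was negative as well, and its difference was not called. The DMSO libraries, of unequal depth, held 138, 124 and 112 counts of it at 3 days and 205, 110 and 65 at 6 days.

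Of the mevalonate and sterol steps, 5 genes that did not pass in WM-1119 and rose in DMSO are given, chosen after their values were seen. Hmgcs1, the synthase at the start of the pathway, was at 91.7, 93.9 and 89.1 CPM and then 93.8, 90.2 and 90.5 CPM in WM-1119, so the times overlapped (log2 change 0.00 ± 0.05). In DMSO it rose from 143, 145 and 124 CPM to 182, 173 and 180 CPM (0.38 ± 0.05, adjusted p = 0.000669), and the difference was -0.38 ± 0.07 (adjusted p = 0.0143). Insig1, which holds SREBP in the endoplasmic reticulum and is itself an SREBP target, went from 78.8, 84.6 and 79.5 CPM to 77.4, 74.4 and 72.2 CPM in WM-1119 and from 98.5 to 116 CPM up to 141 to 147 CPM in DMSO. Its difference was -0.50 ± 0.08 (adjusted p = 0.00233). The demethylase gene Cyp51, the cyclase gene Lss and the desaturase gene Sc5d had differences of -0.38, -0.53 and -0.41, with adjusted p of 0.00951, 0.00686 and 0.0179. The changes of these 3 in WM-1119 were -0.03, -0.18 and -0.10, none past the test.

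Fads2, a desaturase of polyunsaturated fatty acids, missed the threshold in WM-1119 (adjusted p = 0.0514), with 69.2, 73.2 and 73.6 CPM and then 60.4, 62.9 and 64.1 CPM. Its difference from DMSO was -0.50 ± 0.09 (adjusted p = 0.00404). Outside the list and the naming rule, Cpt1a, which carries fatty acids into mitochondria for oxidation, rose from 119, 127 and 124 CPM to 159, 155 and 156 CPM in WM-1119 (0.34 ± 0.05, adjusted p = 0.000468), with 83.1 to 99.3 CPM in DMSO and a difference of 0.45 ± 0.07 (adjusted p = 0.00378). Among 10 genes of cholesterol export and LXR response, edgeR and voom called 1 lower, in edgeR Abca7 (-0.40), and DESeq2 called 2 lower, with 4 lower at an unadjusted p under 0.05 and 2 without the Col1a1-high libraries. None of them rose by edgeR, DESeq2 or voom or at an unadjusted p under 0.05. By edgeR 3.29% of all tested genes were lower in WM-1119 and 2.33% higher.

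**Figure D3:**
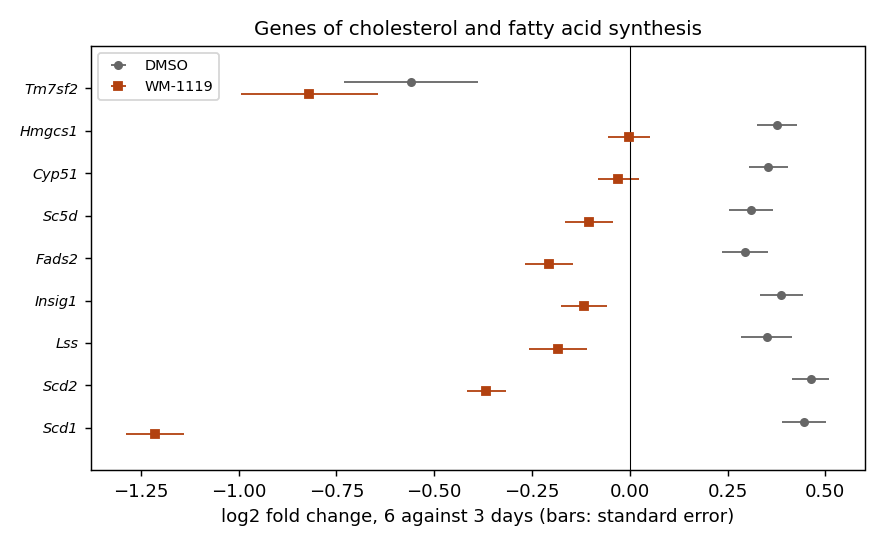
Fitted log2 fold change from 3 to 6 days with its standard error for the 9 genes of cholesterol and fatty acid synthesis whose changes are described in the text, in DMSO (grey circles) and WM-1119 (dark orange squares), ordered by the difference. In WM-1119 Scd1 at -1.21 lies farthest left and Hmgcs1 at 0.00, while in DMSO all but Tm7sf2 lie right of 0.

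The sterol genes moved together in DMSO and differed between treatments. Most of the interferon list, with Gbp2, Gbp3 and Gbp7 but not Gbp9, had positive estimates in WM-1119 and negative ones in DMSO. Promoters of these lists were therefore read for the letters of their known regulators. In the 250 bases before the RefSeq start (GRCm38.p6), the sterol element letters TCACNCCAC, searched on both strands, occurred in 1 of 31 promoters of 25 genes of the lipid list (3.23%) and in 1.05% of all promoters. Scd1 and Scd2 were not among the promoters searched. The palindromic E-box CACGTG occurred in 4 of the 31 (12.9%), in Dhcr7, Hsd17b7, Insig1 and Sc5d, and in 6.02% of all promoters, or 8.62% of those of tested genes. The core of the interferon-stimulated response element, GAAANNGAA on either strand, occurred in 14 of 26 promoters of 22 interferon-list genes (53.8%), against 7.13% of all. No gene of either list had a match to more than 1 of these motifs. The cyclic AMP element TGACGTCA was in none of either set and in 1.55% of all promoters. The stretches around a match are printed for 3 genes of each list, 5′ to 3′ on the strand of the gene, with the match in capitals. They lie on the plus strand at chr13:119690174-119690262 for Hmgcs1, chr5:28071271-28071356 for Insig1, chr3:142620565-142620653 for Gbp2, chr3:142559960-142560043 for Gbp3 and chr3:142530244-142530332 for Gbp7, and on the minus strand at chr9:42264353-42264438 for Sc5d. A match is a description of letters and shows no binding.
Hmgcs1: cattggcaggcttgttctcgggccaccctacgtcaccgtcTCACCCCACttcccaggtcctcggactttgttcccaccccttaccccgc
Insig1: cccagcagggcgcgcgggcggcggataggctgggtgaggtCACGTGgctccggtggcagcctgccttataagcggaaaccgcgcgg
Sc5d: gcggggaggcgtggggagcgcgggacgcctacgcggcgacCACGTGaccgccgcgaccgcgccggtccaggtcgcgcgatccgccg
Gbp2: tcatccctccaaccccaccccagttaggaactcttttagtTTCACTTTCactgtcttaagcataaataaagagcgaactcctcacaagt
Gbp3: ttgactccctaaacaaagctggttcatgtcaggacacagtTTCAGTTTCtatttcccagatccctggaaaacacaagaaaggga
Gbp7: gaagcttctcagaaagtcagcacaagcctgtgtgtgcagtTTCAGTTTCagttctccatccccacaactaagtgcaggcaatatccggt

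Guanylate-binding proteins are interferon-induced GTPases of cell-autonomous defence. Gbp3, whose promoter stretch is among those shown, rose from 17.7, 18 and 15.6 CPM to 23, 20 and 22.6 CPM in WM-1119 (0.35 ± 0.09, adjusted p = 0.0236), with 9.34 to 11.8 CPM in DMSO. Gbp2 did not pass in WM-1119 (7.89, 9 and 7.13 CPM, then 9.1, 10.6 and 9.32 CPM) and fell in DMSO from 5.39, 6.03 and 5.11 CPM to 3.81, 3.72 and 3.78 CPM (adjusted p = 0.0497, lost in 14 of 19 alternatives, with values up to 0.58). The time changes of Gbp2 differed by 0.81 ± 0.18 (adjusted p = 0.0274, lost in 12 of 24 alternatives), those of Gbp3 and Gbp7 by 0.56 and 0.95 (adjusted p = 0.0521 and 0.0717), and blocking on replicate number at 6 days gave this pair 0.0319 and 0.0473. Gbp9 had a negative estimate in WM-1119 without passing, with 262, 452 and 297 unscaled counts at 3 days and 223, 205 and 173 at 6 days. Of 28 tested interferon-induced genes, 2 rose in WM-1119 (Gbp3 and Bst2) and 1 fell (Stat2), and the median was 0.09. These few calls stand beside 2.33% higher and 3.29% lower among all tested genes. Estimates were positive in 23 and negative in 5 in WM-1119. In DMSO 3 were positive and 25 negative, with a median of -0.14. The difference was positive in 27 and negative in 1, with a median of 0.20. Without the Col1a1-high libraries none of the 28 was called in either direction, against 6 higher and 2 lower at an unadjusted p under 0.05 in the full set, where DESeq2 and voom each called 2 higher and 1 lower.

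A few growth-arrest genes rose. Cell cycle inhibitors block cyclin-dependent kinases, and p53 targets include some of them. Of 15 tested inhibitor and senescence genes 2 rose and none fell, with no fall called by DESeq2 or voom or at an unadjusted p under 0.05. Of 25 p53 targets 3 rose and 1 fell, and the medians of both lists were 0.08 and 0.06. Among all tested genes 2.33% were higher and 3.29% lower, and Cdkn1a counts in both lists. Cdkn1a, the p21 inhibitor and a p53 target, was at 2.97, 4.05 and 4.51 CPM at 3 days and 7.84, 8.59 and 6.6 CPM at 6 days, against 3.09 to 4.55 CPM in DMSO (chromosome 17, 29090979 to 29100722). At 3 days it overlapped vehicle, and at 6 days every WM-1119 library was above all DMSO libraries. The rise was 1.99-fold (log2 1.00 ± 0.15, adjusted p = 0.000559) and differed from DMSO by 1.37 ± 0.22 (adjusted p = 0.003). Without the Col1a1-high libraries its adjusted p was 0.106 for the rise and 0.451 for the difference.

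Cdkn2a, the locus of the p16 and p19ARF inhibitors, was already above vehicle at 3 days and went on rising. It stood at 25.5, 24.7 and 23.8 CPM at 3 days, 31.1, 37.6 and 36.2 CPM at 6 days and 10.2 to 13.7 CPM in DMSO (chromosome 4, 89274473 to 89294619). The rise was 1.42-fold (0.50 ± 0.08, adjusted p = 0.00076) and the difference from DMSO 0.69 ± 0.13 (adjusted p = 0.00642). Counts per gene do not separate the 2 products of this locus. Ccng1, a cyclin G and p53 target, rose from 116, 110 and 108 CPM to 143, 145 and 150 CPM, with 106 to 127 CPM in DMSO (difference 0.38 ± 0.08, adjusted p = 0.0181). Zmat3, an RNA-binding p53 target, rose from 29.9, 34.1 and 30 CPM to 40.9, 39.6 and 40.5 CPM but remained under its DMSO range of 48.4 to 54.1 CPM. Pidd1, a death-domain p53 target, fell by 0.35 ± 0.07.

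Other members of these lists did not pass the test. Cdkn1b (p27) was at 53.1 to 59.9 CPM at 3 days and 48.5 to 54.7 CPM at 6 days, and Cdkn2c (p18) at 35.2 to 43.6 CPM and 44.3 to 47 CPM, and neither passed (adjusted p = 0.641 and 0.146). Mdm2, chosen outside the rule, is the p53 ubiquitin ligase and a standard p53 target, and was at 83.6 to 90.4 CPM and then 84.3 to 92.9 CPM. Its log2 change was 0.02 ± 0.05. Mki67, a proliferation marker, was at 990.7, 1275 and 1165 CPM at 3 days and 1190, 1042 and 1207 CPM at 6 days, with the times overlapping (0.00 ± 0.08). Among 50 E2F and DNA replication genes none changed by edgeR or voom, with 4 higher and none lower at an unadjusted p under 0.05 and 1 higher by DESeq2. Cdc25b alone fell among 50 genes of G2 and mitosis, beside 3.29% lower among all tested genes.

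**Figure D4:**
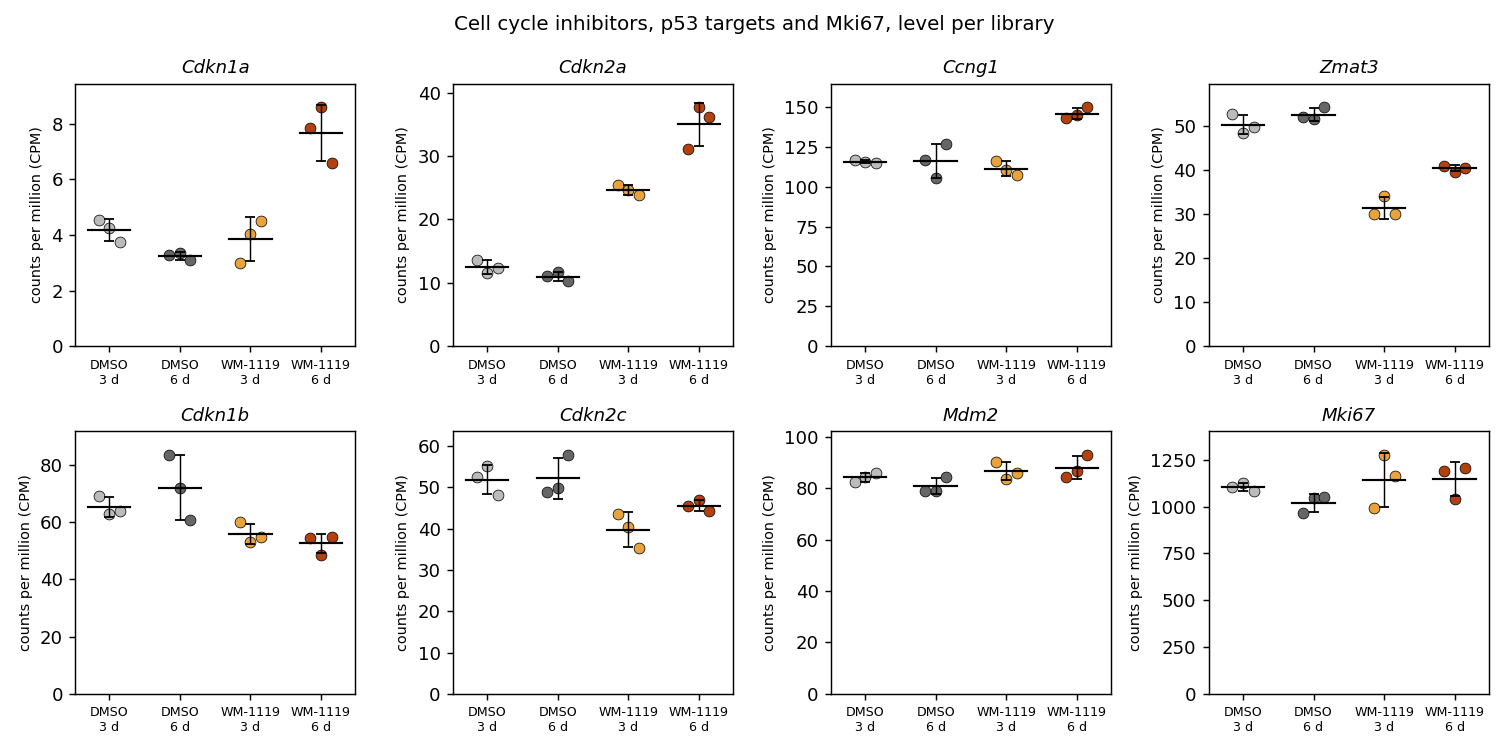
CPM per library (points), mean and SD of 3 libraries for 3 cell cycle inhibitors, Cdkn1a, Ccng1, Zmat3, Mdm2 and Mki67. Cdkn1a reaches 6.6 to 8.59 CPM and Cdkn2a 31.1 to 37.6 CPM at 6 days in WM-1119, above all other libraries, while Cdkn1b, Mdm2 and Mki67 overlap between the 2 WM-1119 times.

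Some B-lineage genes were called, in both directions, beside 2.33% higher and 3.29% lower among all tested genes. Of 20 tested genes of the pro-B and pre-B stage, 2 rose. Ly6d, a surface marker of B-lineage commitment, went from 9.84, 10.9 and 11.6 CPM to 18.1, 19.1 and 18.4 CPM, 1.71-fold higher (adjusted p = 7.13e-05), with 2.33 to 2.97 CPM in DMSO. Its difference from DMSO, 0.63 ± 0.17, did not pass (adjusted p = 0.123). Igll1, the lambda5 chain of the surrogate light chain, rose by 0.28 to 192 to 207 CPM. None of the 20 fell by edgeR, DESeq2 or voom, and 1 was lower at an unadjusted p under 0.05. Of 31 genes of mature B cell surface and receptor signalling 5 fell, among them Igkc, Tnfrsf13c, Ighd (outside the naming rule) and Cd22, by 0.62, 0.27, 0.23 and 0.22, and Blnk, an adaptor of the B cell receptor, rose by 0.16. Without the Col1a1-high libraries none of the 31 was called, while at an unadjusted p under 0.05 in the full set 2 were higher and 8 lower, and DESeq2 called 1 and 5 and voom 1 and 3.

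Igkc, the kappa light chain constant gene, went opposite ways in the 2 treatments. It was at 4.32, 3.52 and 4.83 CPM and then 2.69, 2.66 and 2.79 CPM in WM-1119 (adjusted p = 0.0335), and rose in DMSO from 7.66, 10 and 9.36 CPM to 14.1, 15.2 and 13 CPM. The difference was -1.26 ± 0.20 (adjusted p = 0.00268). The fall in WM-1119 lost its call in 8 of 19 alternatives, with an adjusted p between 0.0148 and 0.24. Cmah, a hydroxylase of sialic acid synthesis, had the same pattern at 44.3 to 46.6 CPM and then 33 to 37.4 CPM in WM-1119, against 76.7 to 79.4 CPM and then 88.7 to 97 CPM in DMSO. The imprinted noncoding RNA H19 had the reverse pattern. It rose from 12.7, 15.7 and 14.1 CPM to 19.7, 21.9 and 18.5 CPM in WM-1119 and fell from 34, 34.1 and 28.7 CPM to 24.7, 23.1 and 24.4 CPM in DMSO (difference 0.92 ± 0.13, adjusted p = 0.000534). Gimap3, a lymphocyte GTPase, did likewise between 12 and 19.9 CPM, with a difference of 0.80 ± 0.11. The calls of Cmah, H19 and Gimap3 in DMSO were lost in 7, 3 and 10 of 19 alternatives. Those in WM-1119 were lost in 1, 2 and 1 of 19.

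Of 24 tested B cell transcription factors 1 rose and 2 fell, few calls to set beside 2.33% higher and 3.29% lower among all tested genes. Bcl11a went from 25.3 to 27.2 CPM to 32.2 to 36.1 CPM (log2 change 0.36), Ets1 from 134 to 141 CPM down to 115 to 119 CPM (-0.23), and Irf4 fell by 0.24. Slamf7, a receptor of activated B and plasma cells, fell from 71.1, 70.1 and 73.6 CPM to 57.7, 60.5 and 55.3 CPM, with 119 to 141 CPM in DMSO, and its difference was -0.46 ± 0.07 (adjusted p = 0.00129). It counts in both the plasma cell list (1 of 11 higher, Mzb1, and 2 lower, with Irf4) and the costimulation list (1 of 16 higher, Slamf6, and 2 lower, with Icosl). Cd86, a costimulatory ligand, was at 9.3, 10.2 and 11.2 CPM and then 11.9, 11.2 and 11.7 CPM in WM-1119 without passing the test, and fell in DMSO from 3.9 to 4.54 CPM to 2.64 to 2.71 CPM. The fall of Cd86 in DMSO (adjusted p = 0.0311) was lost in 11 of 19 alternatives, with values up to 0.166. Its time changes differed by 0.79 ± 0.17 (adjusted p = 0.0279, lost in 12 of 24 alternatives). Ptgir and Cdh17, above vehicle in all WM-1119 libraries, rose from 3 to 6 days. Ptgir, the prostacyclin receptor, went from 10.2, 7.61 and 7.71 CPM to 13.8, 12.4 and 14.9 CPM against 1.1 to 2.17 CPM in DMSO, and Cdh17, a cadherin, from 18.1 to 20.2 CPM to 23.7 to 26.4 CPM against 3.68 to 6.23 CPM. Neurl3, a ubiquitin ligase at 30.5 to 35.5 CPM and then 37.1 to 39 CPM, did not pass (adjusted p = 0.113), with 4.95 to 6.87 CPM in DMSO.

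Homeobox genes of the Hoxb cluster divided by gene. Hox proteins are transcription factors that mark positions in embryos and stages in blood cells, and MYST acetyltransferases are known regulators of Hox loci. Of 13 tested Hox and TALE genes, 5 fell and 2 rose, beside 3.29% lower and 2.33% higher among all tested genes. Hoxb3 fell from 14.9, 16.9 and 16 CPM to 10.3, 10.4 and 10.6 CPM (-0.62 ± 0.10, adjusted p = 0.00109) and Hoxb5 from 9.95, 10.9 and 8.86 CPM to 6.47, 6.39 and 7.21 CPM (-0.58 ± 0.12, adjusted p = 0.0053). Hoxb4 and Hoxb6, outside the naming rule, fell by 0.99 and 0.39, to 1.86 to 2.58 CPM and 19.2 to 22 CPM, and Pbx2, a Hox cofactor, by 0.20. Their neighbours Hoxb7, also outside the rule, and Hoxb8 did not pass. Hoxb8, the most abundant of the cluster in CPM, was at 51.9, 51.1 and 51.1 CPM and then 50, 52.6 and 52.1 CPM (0.01 ± 0.05), against 164 to 188 CPM in DMSO. In DMSO Hoxb3 to Hoxb6 had changes of -0.12, -0.67, -0.31 and -0.21, none past the test, and no Hox gene was called in the difference.

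Hoxc4 had no count in any DMSO library and rose in WM-1119 from 0.757, 0.523 and 0.367 CPM to 1.5, 2.2 and 2.04 CPM (adjusted p = 0.00392), which is 7 to 15 counts and then 25 to 39 counts per library. Hoxb9 rose from 3 to 4 counts to 10 to 11 counts. Without the Col1a1-high libraries no gene of the 13 passed. The full set had 4 higher and 5 lower at an unadjusted p under 0.05, DESeq2 called 0 and 5, and voom 2 and 4.

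**Figure D5:**
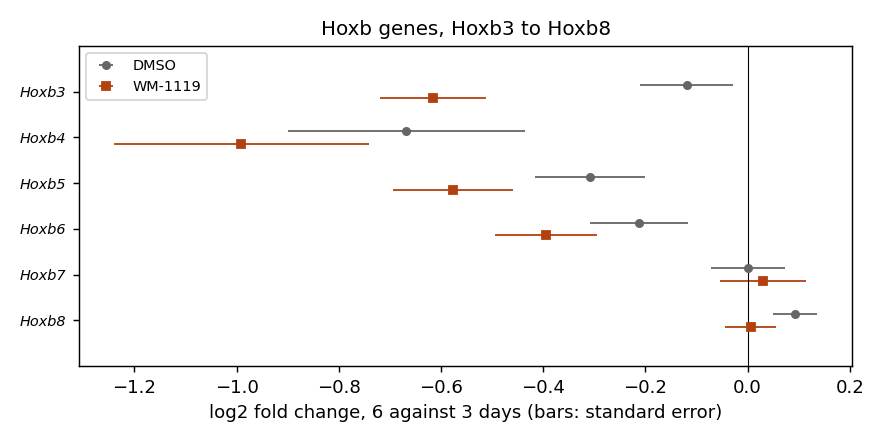
Fitted log2 fold change from 3 to 6 days with its standard error for Hoxb3 to Hoxb8 in DMSO (grey circles) and WM-1119 (dark orange squares). Hoxb3, Hoxb4, Hoxb5 and Hoxb6 lie at -0.62, -0.99, -0.58 and -0.39 in WM-1119, and Hoxb7 and Hoxb8 at 0.03 and 0.01.

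The enzymes that WM-1119 targets, Kat6a and Kat6b, did not pass the test between the times, nor did the scaffold Brpf1. Kat6a was at 158, 180 and 174 CPM and then 190, 176 and 186 CPM, Kat6b at 25.6, 27.4 and 27.6 CPM and then 25.9, 23.1 and 27 CPM, and the scaffold Brpf1 at 121 to 124 CPM and then 116 to 117 CPM. Their log2 changes were 0.11 ± 0.05, -0.09 ± 0.07 and -0.07 ± 0.05. Of 14 genes of KAT6 and related complexes, Jade2, a scaffold used by another MYST enzyme, rose from 57.1 to 60.6 CPM to 72.6 to 76.7 CPM (0.33 ± 0.05, adjusted p = 0.000732), and Brpf3 fell by 0.22. Myc, which the transgene also expresses, was at 1232, 1169 and 1174 CPM and then 1200, 1197 and 1254 CPM (0.03 ± 0.05). Of 52 MYC targets of growth and ribosome biogenesis Nop56 and Nle1 fell, by 0.23 and 0.20, and none rose by edgeR, DESeq2 or voom, with 5 higher at an unadjusted p under 0.05. The few calls among the KAT6 and MYC-target genes stand beside 2.33% higher and 3.29% lower among all tested genes.

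Several housekeeping programs had no called member. None of 79 ribosomal protein genes of the cytosol was called by edgeR or voom, though 67 had a negative estimate, the median was -0.22 and 17 were lower and none higher at an unadjusted p under 0.05. DESeq2 called 3 of them lower, and without the Col1a1-high libraries 18 were lower in WM-1119 and 19 in DMSO. Ribosomal protein genes have many processed pseudogenes, and their values are uncertain for the same reason as those of the Cd300 paralogs. None of 21 glycolysis genes, 21 hypoxia-inducible genes, 54 nuclear genes of oxidative phosphorylation and 13 mitochondrially encoded genes was called by edgeR, DESeq2 or voom. At an unadjusted p under 0.05 these lists had 3 higher and 2 lower, 1 and 0, 8 and 2, and 0 and 0. Without the Col1a1-high libraries 9 of the 54 were lower. Medians of the 4 lists were 0.02, 0.10, -0.02 and -0.16.

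In the signalling and stress lists 1 to 3 members passed in a direction, beside 2.33% of all tested genes higher and 3.29% lower. Single calls in lists of this size say nothing about the lists. Where 2 or 3 members rose, the share was above that of all tested genes, but the calls are few and no set test was run. Nr4a3 and Fosb rose among 20 immediate-early genes, Fosb from 2 to 3 counts to 6 to 11 counts per library. Dusp5 and Dusp6, phosphatases that dampen ERK signalling, both rose by 0.21 among 15 such feedback genes. Hexa, a lysosomal hexosaminidase subunit, rose from 45.2, 48 and 45.4 CPM to 59.5, 69.9 and 66 CPM (1.41-fold, adjusted p = 8.41e-05). With Lipa and Atp6ap1 it was 1 of 3 that rose among 37 lysosome genes, while Cd68 fell. Bcl2, which blocks apoptosis, fell by 0.47, from 8.97, 9.46 and 9.23 CPM to 6.17, 5.82 and 8.1 CPM, and Bcl2l11, its antagonist BIM, rose by 0.23 among 17 genes of that family. Nfkbid fell by 0.38 among 15 NF-kB targets and Psph rose by 0.30 among 31 genes of the stress responses. In antigen presentation Pdia3 rose and H2-Q4 fell among 22 class I genes, and H2-Ab1 rose among 9 class II genes.

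Over all pathway and marker lists, 744 distinct members were tested, and 28 rose and 28 fell in WM-1119, 3.76% each way, beside 2.33% higher and 3.29% lower among all tested genes. Genes that fell had transcripts richer in G and C, with a median of 54.9% against 48.9% for genes that rose and 49.7% for all tested genes. Their median log2 change in DMSO was -0.17, against 0.05 for the genes that rose. With an offset for GC content in the fit, 240 of the 279 rises and 351 of the 395 falls were called again. The myeloid markers summed to 135 to 138 CPM at 3 days and 158 to 159 CPM at 6 days of WM-1119, mostly through Itgam, which rose by 0.23. Mrc1 was at 27.8 to 35.3 CPM in the WM-1119 libraries, against 54.2 to 63.6 CPM in DMSO. Csf1r was at 3.62 to 4.97 CPM, against 0.569 to 1.16 CPM in DMSO. Elane, S100a8, S100a9 and Marco had no count in any WM-1119 library.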

How the data were processed

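RNA-seq was made from 12 libraries of the EMRK1184luc line with a stranded poly(A) kit, per the labels' protocols. The deposited table holds whole-number read counts per gene that the authors made with featureCounts on mm10, per the submitters' processing notes. The aligner, the strand setting and the treatment of reads fitting several genes are not given in sources used here. Of 27179 entries, 874 have no gene identifier and were left out (0.305% to 0.362% of a library). RefSeq tables of GRCm38.p6, the same build, gave symbols for 25275 of 26305 identifiers.

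Counts were scaled by TMM (factors 0.981 to 1.02), filtered with filterByExpr by group, and fitted as 4 group means with edgeR 4.0.16 (R 4.3.3; glmQLFit, robust, and glmQLFTest, two-sided). The contrasts were 6 against 3 days in WM-1119, the same in DMSO, and their difference. Adjusted p-values are Benjamini-Hochberg over 11997 genes, threshold 0.05. The common biological coefficient of variation was 5.69% on 8 residual degrees of freedom. The scripts were tested on simulated data. A few genes are not reported here. No 2 libraries of the same group agreed within sampling noise.

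Named genes were, among genes with a symbol that passed in WM-1119 with a mean of at least 2 CPM and no overlap, the 12 largest rises and falls, the 6 of each with the smallest p and the 6 of each with the smallest p in the difference. Up to 4 members per list with the smallest p and a fixed set were added without the CPM limit. The comparison, the 34 gene lists and that set were chosen with earlier results of these data known, so no list is independent evidence. Alternatives were RLE and upper-quartile scaling, other filters, DESeq2 1.42.0, limma 3.58.1 with voom, fewer groups, equal depth, a fibroblast covariate, a GC offset (92% of genes had a GC value), libraries left out and the replicate number as a block. The GC offset and the block within fewer libraries were chosen after seeing the data. With the Col1a1-high libraries left out, each treatment keeps 1 library at 6 days, which is assumed to vary like the other groups. Replicate numbers did not pair the WM-1119 libraries of the 2 times, since deviations from the group means correlated at 0.014, 0.001 and 0.101. They correlated at 0.193, 0.144 and 0.243 between WM-1119 and DMSO at 6 days, so an alternative fit took the numbers as pairs there. The main fit used no pairs, and its interaction p-values do not take them into account.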

Additional observations from a re-analysis of the deposited data

Results flagged for a closer look

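The change from 3 to 6 days differed between WM-1119 and DMSO in 87 genes by the interaction term of the edgeR fit, and those named in the report are given with the WM-1119 change minus the DMSO change on the log2 scale. More positive in WM-1119 were Nr4a3 (1.62), Cd300ld (1.04), Adgrg1 (1.18), Cdkn1a (1.37), Actn1 (0.49), Uaca (0.38), Cdh17 (0.88), Plce1 (1.00), H19 (0.92), Gimap3 (0.80), Jade2 (0.33), Ccng1 (0.38), Cdkn2a (0.69), Cd86 (0.79), Gbp2 (0.81), Cpt1a (0.45) and Igll1 (0.34). More negative in WM-1119 were Trib2 (-1.65), Osbp2 (-1.36), Brwd1 (-1.19), Scd1 (-1.66), Ppp1r9a (-1.21), Scd2 (-0.83), Fads2 (-0.50), Slamf7 (-0.46), Cmah (-0.60), Igkc (-1.26), Ets1 (-0.29), Insig1 (-0.50), Cyp51 (-0.38), Hmgcs1 (-0.38), Lss (-0.53) and Sc5d (-0.41). Trib2, Scd1, Scd2 and Plce1 kept the call of the difference under all 24 alternatives run for it, and the other 29 of the 33 named genes lost it in at least 1. The groups of 3 libraries are too small for a test of single outlying libraries.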

How the results depend on the processing

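In WM-1119, 674 genes changed from 3 to 6 days. The count was 1117 when only the WM-1119 groups entered the fit and 268 without the libraries over 1 CPM of Col1a1, 501 to 789 under 11 other settings, and 309 to 576 when 1 library was left out. DMSO had 97, and 173 without a filter on low counts, 171 by DESeq2, 47 from its own groups alone, 167 with the replicate block, 46 with the replicate block on its own groups, 537 without the Col1a1-high libraries, and 41 to 158 when 1 library was left out. The difference had 87, then 5 without the Col1a1-high libraries and 46 to 217 when 1 library was left out. The lists had 56 distinct called members, 97 from the WM-1119 groups alone and 23 to 50 when 1 library was left out. With the replicate block the WM-1119 count was 354 higher and 435 lower. The numbers pair no WM-1119 libraries across times. The block within 6 days gave 67 and 49 in the difference and, among named genes, added Ptgir (adjusted p = 0.0498), Gbp3 and Gbp7 and changed no other call. No named call changed sign, while 3 of the 674 genes did without the Col1a1-high libraries. Of 94 named calls in WM-1119, 35 held under every alternative and 59 were lost in at least 1, of 21 in DMSO 11 held, and of 33 in the difference 4 held. The cause was not tested. Leaving out libraries gives fewer samples to a fit. At 6 days the WM-1119 libraries are the shallowest, which limits genes of a few CPM.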
